A study of Mus musculus with 6 samples.

Results

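The mitochondrial ribosomal proteins were taken as every gene on the array whose symbol begins with MRPL or MRPS, for the large and the small subunit, followed by a number and at most 1 letter. The rule found 73 genes with 125 probes among 30854 symbols with 45281 probes, of which 45 genes (77 probes) belonged to the large and 28 genes (48 probes) to the small subunit. The RNA came from mGLUTag cells, an immortalized mouse line that secretes glucagon-like peptide-1 and serves as a model of the intestinal L-cell. The cells of all 6 samples had been made quiescent in low serum and pulsed with forskolin, which raises cAMP and synchronizes the cell clocks, and were then returned to growth medium. The labels separate the groups only by the time of collection, with 3 arrays at 4 h and 3 arrays at 16 h, the peak and trough times for the clock gene Bmal1 in this model. Each sample was read on 1 array of the mouse WG-6 V2 BeadChip type, and the labels give no further treatment or genetic change. All samples are of 1 cell line, and the sources used here do not say whether replicates were separate cultures, so that p-values measure only the spread between these samples.

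Mitochondria make a small set of proteins of their own, all of them core subunits of the respiratory chain and ATP synthase, on a ribosome that differs from the one in the cytosol. Its RNAs are encoded in the mitochondrial genome, whereas every protein of the large and small subunit is encoded in the nucleus, made in the cytosol and imported. Some of these proteins descend from bacterial ribosomal proteins and others are found only in mitochondria. The large subunit joins amino acids and passes the new chain to the inner membrane, while the small subunit binds and decodes the mRNA.

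Most mitochondrial ribosomal protein genes gave bright signals. A probe was called detected when it exceeded the array's noise limit on all 6 arrays, a limit set from the spread of values below 0 and lying between 9.2 and 14 intensity units. By this rule 69 of the 73 genes were detected, 42 of the large and 27 of the small subunit, each represented by its brightest probe. The remaining genes, Mrpl19, Mrpl21, Mrpl32 and Mrps14, did not pass on any array with that probe and are given no change. Among probes, 107 of 125 passed on every array, 4 on some and 14 on none. The brightest probes of the 69 genes had a median at the 90.0th percentile of brightness among the 14941 detected probes, with a range from the 13.6th to the 98.5th. The deposited intensity of the 69 genes ran from 48.6 to 11561 units at 4 h with a median of 2054, and from 25.9 to 8502 units at 16 h with a median of 1470. Brightness depends on how well each probe binds its target, so the order of probes is not an order of mRNA abundance.

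**Figure D1:**
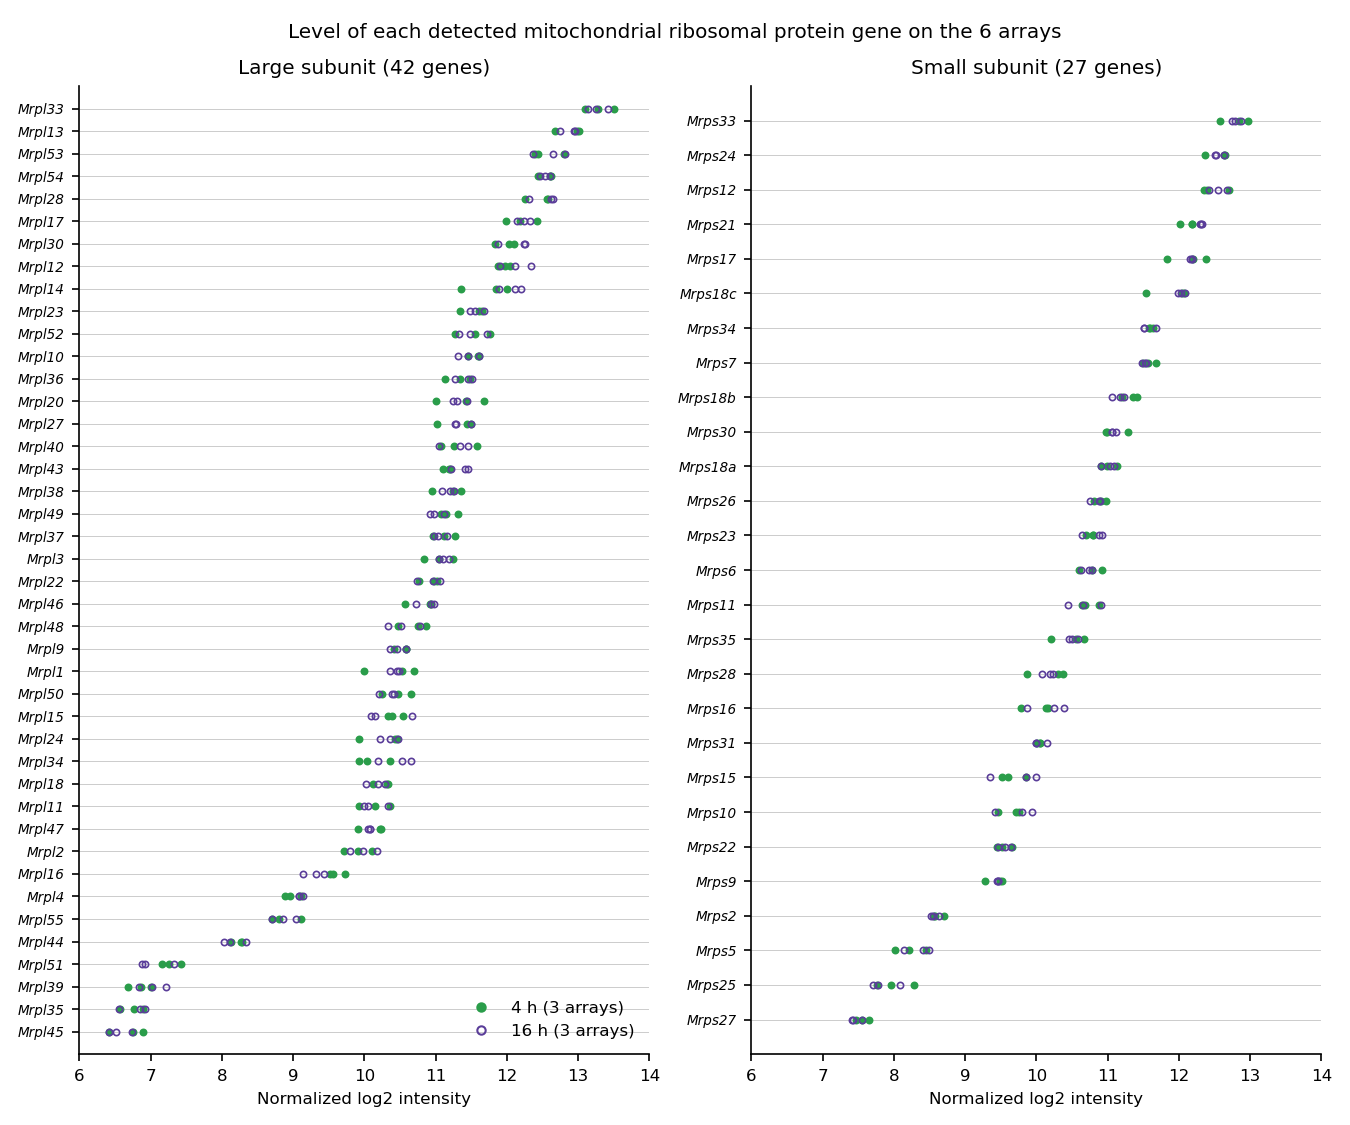
Normalized log2 intensity (horizontal axis) of the 69 detected genes (vertical axis), large subunit on the left and small on the right, with 1 filled point per 4 h array and 1 open point per 16 h array. The points of both times lie over one another for nearly every gene, and only Mrpl16, Mrps21 and Mrpl43 have no overlap between the times.

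Markers of the L-cell and of other cell types were checked. Of 6 L-cell markers, 5 were detected on every array, among them Gcg, which encodes the precursor of glucagon-like peptide-1, while Pcsk1, the convertase that processes it, passed the noise limit on 1 array. None of the 5 enterocyte, 4 immune or 4 other endocrine markers was detected on all arrays. Of 4 goblet and Paneth cell markers only Tff3 was detected on all arrays, and of 4 fibroblast markers only Col1a1. Their log2 changes were -0.26 and -0.06, and Gcg had a change of 0.35 with a limma adjusted p of 0.461. The deposited intensity of Tff3 ran from 532 to 865 units over the 6 arrays. The arrays correlated between 0.989 and 0.994 with each other, and the mean deposited intensity was higher on the 4 h arrays (291 to 354 units) than on the 16 h arrays (216 to 246 units).

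To determine whether expression of the mitochondrial ribosome differed between the times, deposited intensities were compared first. All 69 genes were brighter on average in the 4 h samples, as were 14670 of all 14941 detected probes. Their log2 ratios had a median of 0.50 and ran from 0.13 to 0.97, and the 4 h and 16 h arrays did not overlap for 55 of them (79.7%). The median ratio of all detected probes was 0.55, and 49.2% of them lay higher at 4 h without overlap, or 64.4% when probes were weighted to the brightness classes of the members. Against detected probes of like brightness, meaning the same one of 20 equal brightness classes, the median excess of the members was 0.011. Why the 4 h arrays were brighter was not tested. In bulk RNA on 1 array per sample, more cells, more RNA per cell and a brighter array reading cannot be told apart. The rest of the comparison used quantile-normalized values, which give every array the same distribution.

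After normalization no mitochondrial ribosomal protein gene differed between 4 h and 16 h at an adjusted p under 0.05 (limma, Benjamini-Hochberg over all 45281 probes). Across the array 4 probes, or 0.00883%, passed that threshold. The median log2 change of the 69 genes, 4 h minus 16 h, was -0.0058, beside 0.0014 for all detected probes, and relative to probes of like brightness it was 0.00023. The quartiles were -0.067 and 0.056 and the extremes -0.35 and 0.30, with 33 genes higher at 4 h and 36 lower. Taking an unadjusted p under 0.05, 1 gene was higher at 4 h and 3 were lower, where the same rule took 5.74% of detected probes as higher and 5.18% as lower. The arrays of the 2 times did not overlap for 1 gene that was higher and 2 that were lower, against 6.12% and 5.51% of detected probes. By unadjusted p the members' shares were 1.45% higher and 4.35% lower. For detected probes weighted to the brightness classes of the members they were 5.61% and 4.38%. The share that was lower was thus near that of probes of like brightness, and all of these counts of members are small.

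On the brightest probe of each gene, the sizes of the changes were small beside those of other probes. On these probes 4 of 69 genes (5.80%) had a log2 change beyond 0.2 in either direction. The share was 17.4% of all detected probes and 17.0% of detected probes weighted to the brightness classes of the members. The shares of other probes count every detected probe of a gene, so they are not on the same basis. Dimmer detected probes of members, not in this count, also went beyond 0.2. In the large subunit Mrpl1 gave 0.25, Mrpl15 0.22 and Mrpl38 -0.31. Mrpl48 gave 0.23 and 0.28, and Mrpl49 gave -0.23 and -0.33. The median size of the change was 0.062 for the members and 0.092 for probes weighted in that way. All 4 larger changes on the brightest probes were in the large subunit, and 0 of the 27 small subunit genes had such a change. In the small subunit dimmer probes of Mrps18b gave 0.22 and 0.2003.

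**Figure D2:**
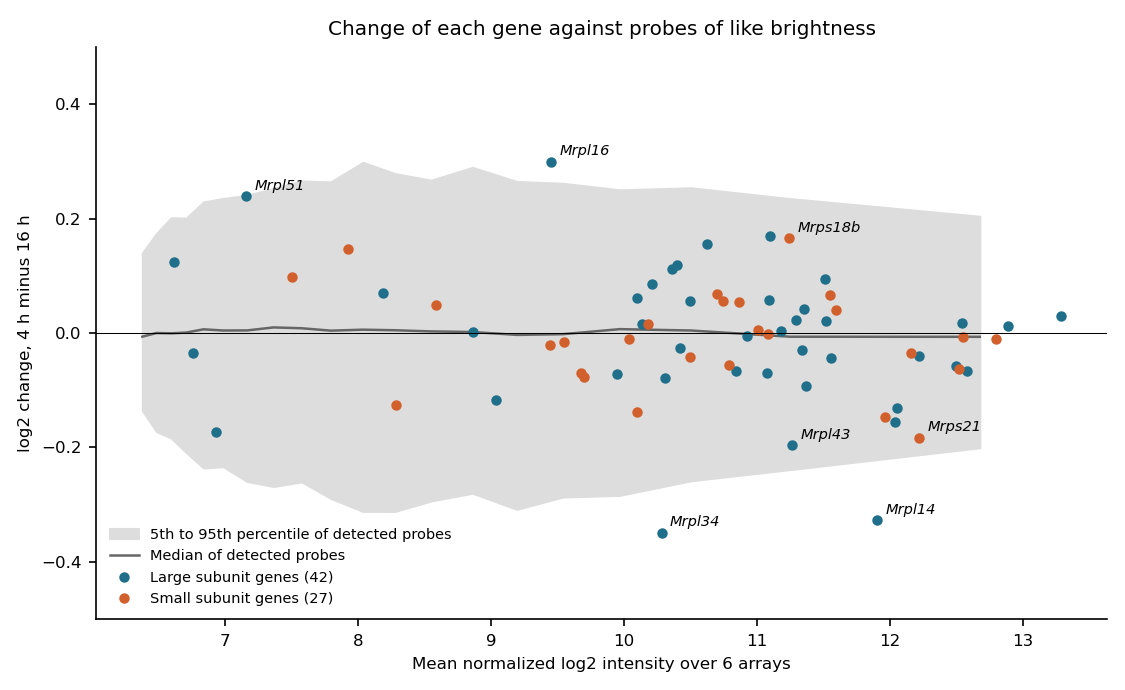
The log2 change, 4 h minus 16 h (vertical axis), against the mean normalized log2 intensity (horizontal axis) for 42 large subunit and 27 small subunit genes, over the median and the 5th to 95th percentile of detected probes in 20 brightness classes. Most genes lie within the grey band, while Mrpl16 at 0.30 lies above it and Mrpl34 at -0.35 and Mrpl14 at -0.33 lie below it.

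Mrpl16 (probe ILMN_2611648) had the most positive change. It is a homologue of bacterial L16 in the large subunit. Normalized log2 intensities were 9.52, 9.73 and 9.56 on the 4 h arrays and 9.32, 9.44 and 9.14 on the 16 h arrays. Every 4 h array lay above every 16 h array. The means were 9.60 ± 0.11 and 9.30 ± 0.15 (SD, n = 3), a log2 change of 0.30 with a standard error of 0.094, a 95% interval of 0.086 to 0.51 and a limma adjusted p of 0.729. In the deposited intensities the 4 h arrays read 851.0, 805.2 and 866.2 units and the 16 h arrays 488.9, 565.1 and 354.2 units. An exact permutation test of 3 against 3 arrays cannot go below p = 0.1, so that complete separation of the arrays is the most that single genes can show by rank.

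Mrpl34 (probe ILMN_2744204), a homologue of the very small bacterial protein L34, had the most negative change. Its levels were 9.93, 10.35 and 10.04 at 4 h and 10.19, 10.53 and 10.66 at 16 h on the log2 scale. The 4 h array of replicate 2 lay within the range of the 16 h arrays. The log2 change was -0.35 with a standard error of 0.14, a 95% interval of -0.67 to -0.029 and a limma adjusted p of 0.885. Mrpl14, a homologue of bacterial L14, followed with a change of -0.33 and a standard error of 0.16. Its 4 h arrays read 11.85, 12.00 and 11.36 and its 16 h arrays 12.11, 11.88 and 12.20, so the low value of replicate 3 at 4 h carried much of the difference. Without that array the Mrpl14 change was -0.14.

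Mrps21 (probe ILMN_2745555), which corresponds to bacterial S21 in the small subunit, and Mrpl43 (probe ILMN_2598222), a large subunit protein that bacteria lack, were the other genes with an unadjusted p under 0.05. Mrps21 read 12.02, 12.18 and 12.18 at 4 h and 12.32, 12.29 and 12.31 at 16 h, with no overlap. Its log2 change was -0.18 with a standard error of 0.071 and a limma adjusted p of 0.878. Mrpl43 read 11.20, 11.19 and 11.10 at 4 h and 11.21, 11.41 and 11.46 at 16 h. These arrays also did not overlap, although the gap between the nearest arrays was small. The change was -0.20 with a standard error of 0.082 and a limma adjusted p of 0.901, and a second probe of Mrpl43 gave -0.16. On the deposited scale both genes were brighter at 4 h, with log2 ratios of 0.26 and 0.27, as were Mrpl34 and Mrpl14 with 0.13 and 0.18, so that the lower values of these genes exist only relative to the other probes.

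The promoters of the 4 genes with the most positive and most negative changes are given here from RefSeq on GRCm38.p6, from 250 bases before to 50 bases after the start of the transcript. They were searched on both strands for 4 motifs: the E-box CACGTG bound by the clock factors BMAL1 and CLOCK, TGCGCA of nuclear respiratory factor 1 (NRF1), CCGGAAG of the ETS family that includes GABPA, and ATGGCGG of YY1. NRF1, GABPA and YY1 are known regulators of nuclear genes for mitochondrial proteins. Other forms of the E-box, such as the non-canonical ones that the paper reports for BMAL1 at another gene, were not searched. Matches are in capitals. Mrpl34 lies at chr8:71464676-71464975, plus strand, Mrpl14 at chr17:45686099-45686398, plus strand, Mrpl51 at chr6:125191950-125192249, plus strand, and Mrpl16 at chr19:11770165-11770464, plus strand.
Mrpl34: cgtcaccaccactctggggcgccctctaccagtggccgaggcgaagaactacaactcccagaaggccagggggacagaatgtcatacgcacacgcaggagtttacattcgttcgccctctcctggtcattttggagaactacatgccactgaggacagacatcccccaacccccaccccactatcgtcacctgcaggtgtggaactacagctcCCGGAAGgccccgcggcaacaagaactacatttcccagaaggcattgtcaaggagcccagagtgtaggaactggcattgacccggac
Mrpl14: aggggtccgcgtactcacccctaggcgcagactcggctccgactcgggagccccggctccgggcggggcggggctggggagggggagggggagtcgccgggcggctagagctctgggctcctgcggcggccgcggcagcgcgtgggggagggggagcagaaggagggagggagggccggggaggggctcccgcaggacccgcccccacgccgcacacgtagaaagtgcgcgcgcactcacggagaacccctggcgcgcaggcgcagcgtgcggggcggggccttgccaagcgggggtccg
Mrpl51: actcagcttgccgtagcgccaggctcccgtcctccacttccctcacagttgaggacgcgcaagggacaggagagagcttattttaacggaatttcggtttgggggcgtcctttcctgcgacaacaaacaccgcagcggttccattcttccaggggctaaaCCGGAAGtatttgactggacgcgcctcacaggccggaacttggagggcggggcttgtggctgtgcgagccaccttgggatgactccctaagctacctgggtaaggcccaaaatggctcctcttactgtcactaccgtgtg
Mrpl16: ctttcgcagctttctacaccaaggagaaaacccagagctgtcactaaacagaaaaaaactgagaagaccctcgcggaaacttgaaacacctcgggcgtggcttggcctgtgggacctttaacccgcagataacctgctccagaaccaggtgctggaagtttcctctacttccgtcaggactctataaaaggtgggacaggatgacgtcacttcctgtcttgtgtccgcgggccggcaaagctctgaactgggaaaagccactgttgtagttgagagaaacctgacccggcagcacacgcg
An ETS match began 37 bases before the start in Mrpl34 and 90 bases before it in Mrpl51, whereas the windows of Mrpl14 and Mrpl16 held none of the letters searched.

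Further genes were among the 5 with the smallest unadjusted p in their direction. Mrps18b, Mrpl49, Mrpl51 and Mrps27 had positive changes of 0.17, 0.17, 0.24 and 0.098, and Mrpl39 a negative one of -0.17. Mrps18b is one of 3 mammalian copies of the bacterial protein S18, and its 4 h arrays read 11.20, 11.36 and 11.41 against 11.18, 11.06 and 11.23 at 16 h. The arrays overlapped, since replicate 1 at 4 h lay below replicate 3 at 16 h. Its limma adjusted p was 0.920 with a standard error of 0.081. Mrpl51 read 7.43, 7.26 and 7.15 at 4 h and 7.33, 6.92 and 6.88 at 16 h, with overlap and a standard error of 0.13. Its dimmer detected probes gave changes of -0.0072 and -0.0083.

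The 3 copies of S18 are of interest because they occupy different places in the ribosome. Mrps18c takes the position of bacterial S18, Mrps18b sits elsewhere on the small subunit, and Mrps18a belongs to the large subunit despite its name. Their log2 changes were -0.15 for Mrps18c, 0.17 for Mrps18b and 0.0056 for Mrps18a, with standard errors of 0.13, 0.081 and 0.083. For Mrps18c the 4 h arrays read 12.08, 12.04 and 11.54 and the 16 h arrays 11.98, 12.08 and 12.04, and replicate 3 at 4 h alone lay below the 16 h range. The 16 h arrays of Mrps18a, from 10.91 to 11.08, lay within its 4 h range except for the lowest. None of these 3 changes passed the adjusted threshold.

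Landmark proteins of the ribosome likewise gave small values. The stalk that recruits translation factors is formed by Mrpl10 and Mrpl12, with Mrpl11 at its base, and their log2 changes were 0.094, -0.16 and 0.016 with standard errors of 0.090, 0.11 and 0.13. Mrpl45, which anchors the exit tunnel at the inner membrane, had a change of 0.12 with a standard error of 0.13 on a dim probe. Mrpl44, a protein related to RNase III, gave 0.069. In the decoding region of the small subunit Mrps12 gave -0.062 and Mrps5 -0.13. Mrps27, a pentatricopeptide repeat protein, gave 0.098, and Mrps30, placed in the large subunit by structure, gave -0.0023. The 95% intervals of all of these genes included 0, and they reached from -0.41 for Mrps5 to 0.42 for Mrpl45.

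The brightest and dimmest probes gave the same picture. In the large subunit the brightest were Mrpl33, Mrpl13 and Mrpl53, with changes of 0.029, 0.013 and -0.066, and in the small subunit Mrps33, Mrps24 and Mrps12, with -0.011, -0.0064 and -0.062. Among the dimmest were Mrpl35 at -0.035, Mrpl39 at -0.17 and Mrps25 at 0.15, in addition to Mrpl45, Mrps27 and Mrps5. The probe of Mrpl45 read 6.41, 6.74 and 6.89 at 4 h and 6.74, 6.42 and 6.52 at 16 h, and its spread within each time exceeded the difference between them.

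To compare the subunits, the large subunit was set against the small subunit. The median log2 change was 0.0032 for 42 large subunit genes, with 22 higher at 4 h, and -0.010 for 27 small subunit genes, with 11 higher. The difference of 0.013 was smaller than 0.044, the pooled SD between arrays of the large minus small median. Moving Mrps18a and Mrps30 to the large subunit, as the structure places them, gave 0.014. Relative to probes of like brightness the medians were 0.0050 and -0.0043. In deposited values the median log2 ratio was 0.50 for each subunit.

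Members other than Mrps18a and Mrps30 were also sorted by origin within each subunit. The median change was -0.029 for 27 large subunit genes with a bacterial homologue and -0.028 for 16 such genes of the small subunit, Mrps18b included. For proteins found only in mitochondria it was 0.023 for 15 large subunit genes, of which 11 were higher at 4 h, and -0.010 for 9 small subunit genes, of which 4 were higher. Counting Mrps18b among the latter turned that median to 0.015, so its sign rests on where 1 gene is placed. All of these medians lay within 0.096 of 0, the pooled SD between arrays of the members' median, and the difference between origins was not tested.

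The arrays of 1 time point differed among themselves more than the times did. Each gene's value on an array was expressed as its deviation from the gene's own mean over the 6 arrays. The median deviation of the 69 genes was 0.040, 0.092 and -0.15 on the 4 h arrays and 0.023, -0.046 and 0.047 on the 16 h arrays. On replicate 3 at 4 h, 56 of 69 genes (81.2%) lay below their own mean, beside 48.7% of probes weighted to the members' brightness. On replicate 2 at 4 h, 60 (87.0%) lay above it, beside 53.6%. Replicate 3 at 4 h was the lowest of all 6 arrays for 32 genes (46.4%), compared with 20.4% of detected probes and 25.4% of probes weighted to the members' brightness. Both subunits took part, with medians on that array of -0.16 for the large and -0.11 for the small subunit. Mrpl14, Mrpl1 and Mrpl24 were furthest below their means among large subunit genes and Mrps18c, Mrps17 and Mrps16 among small subunit genes, named here after their values were seen.

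**Figure D3:**
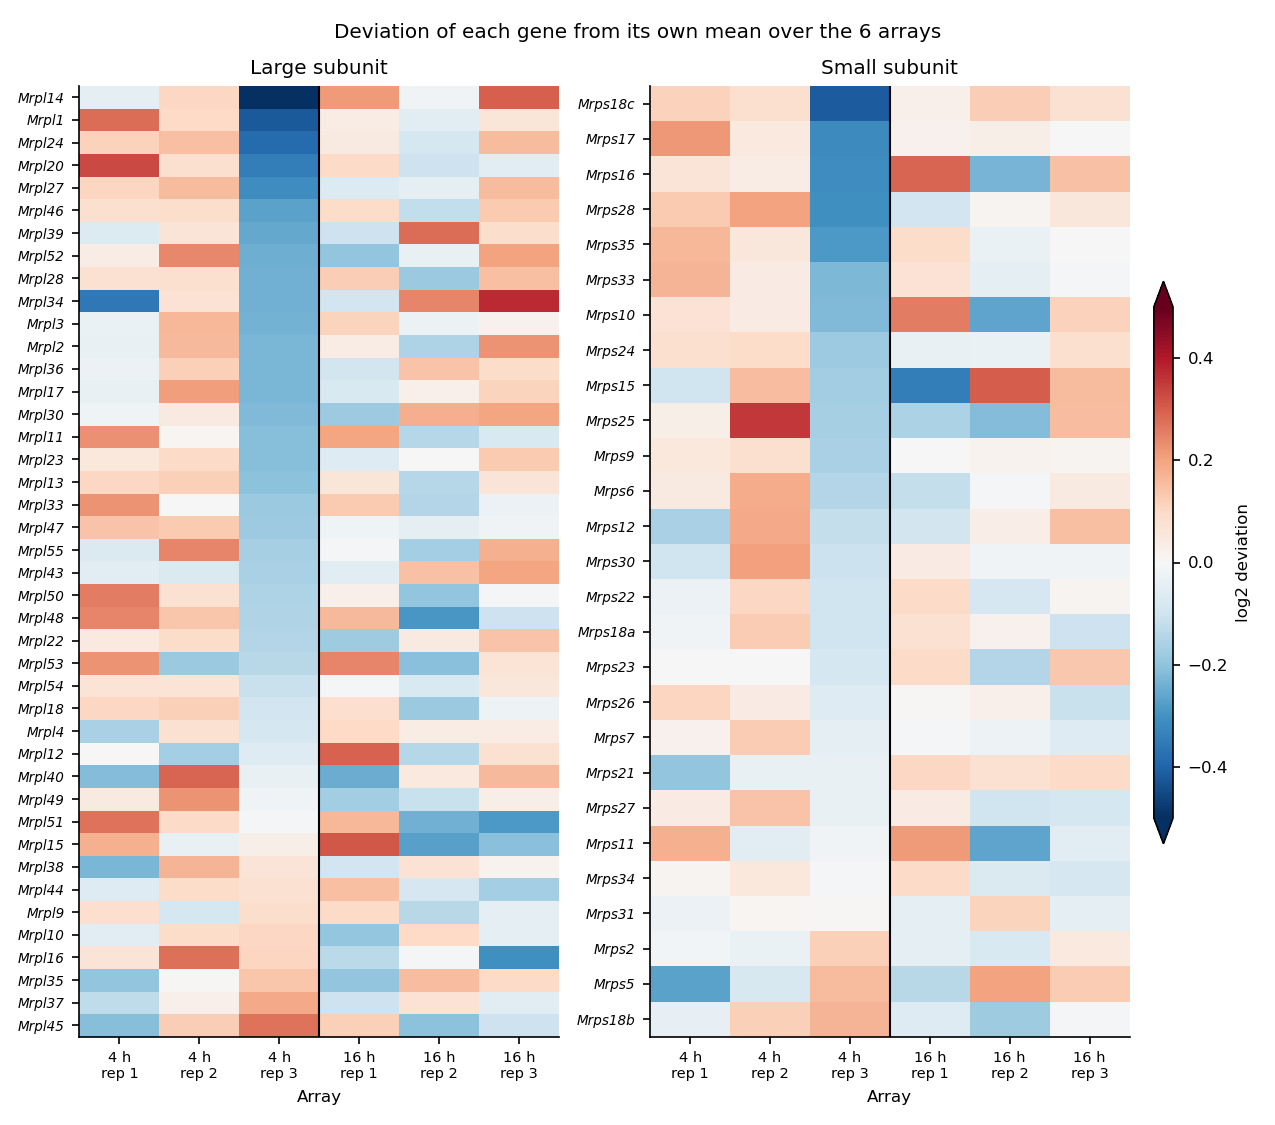
Deviation of each of the 69 genes (rows) from its own mean over 6 arrays (columns), as log2 units in colour, with genes sorted by their value on replicate 3 at 4 h. The column of replicate 3 at 4 h is below 0 for 56 of 69 genes, while Mrps18b, Mrpl45 and Mrpl37 are among the 13 above it.

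Genes of the respiratory chain showed the same low array. Of 70 detected genes for oxidative phosphorylation subunits, 54 lay below their own mean on replicate 3 at 4 h, with a median deviation of -0.13. The cytosolic ribosomal proteins had a median of -0.069 there, with 37 of 57 below. All detected probes had a median of 0.0096 on that array. Replicate 2 at 4 h separated these groups, since its median was 0.092 for the mitochondrial ribosomal proteins and 0.057 for oxidative phosphorylation, but -0.026 for the cytosolic ribosomal proteins. Leaving out replicate 3 at 4 h moved the median change of the 69 genes to 0.055, with 50 genes higher, and leaving out replicate 2 at 4 h moved it to -0.066, with 25 higher. With either array left out 0 genes passed the adjusted threshold in limma. An unadjusted p under 0.05 was then found for 5 genes (7.25%), beside 12.6% of detected probes without replicate 3 and 13.6% without replicate 2.

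**Figure D4:**
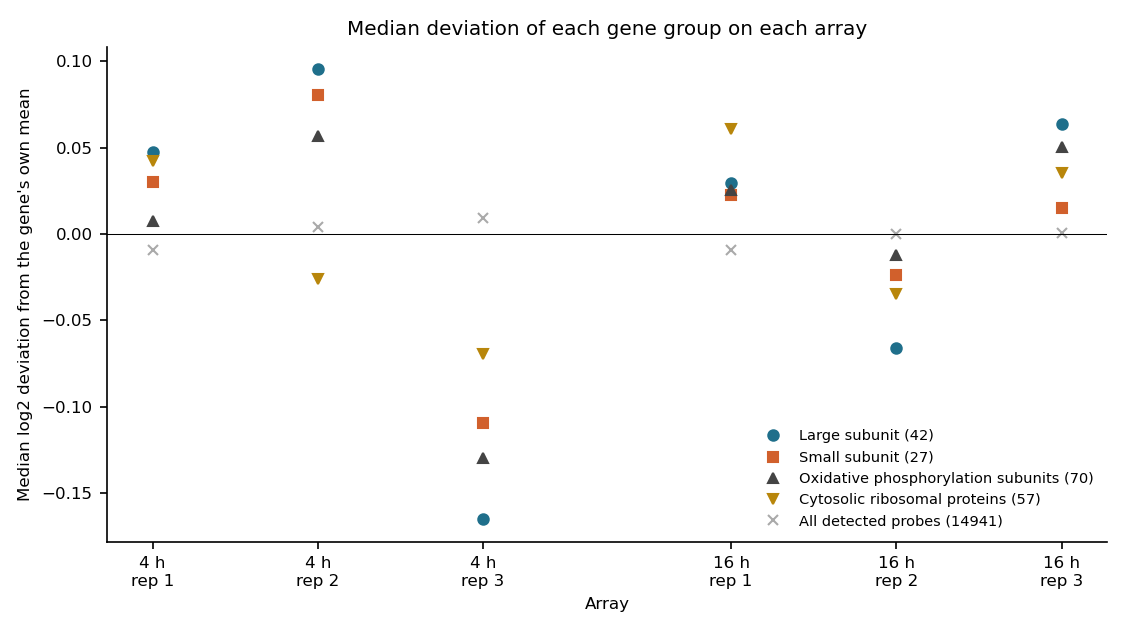
Median log2 deviation from each gene's own mean (vertical axis) on each of the 6 arrays (horizontal axis) for the large and small subunit, oxidative phosphorylation subunits, cytosolic ribosomal proteins and all detected probes. Both subunits and the oxidative phosphorylation genes are lowest on replicate 3 at 4 h, at -0.16, -0.11 and -0.13. The cytosolic ribosomal proteins are also lowest there, at -0.069.

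Several genes had more than 1 probe, which gave a check within the data. Of 27 genes with at least 2 detected probes, 11 had the same sign of change on all of them. For 7 genes the probes differed in sign and by more than 0.2: Mrpl1, Mrpl15, Mrpl38, Mrpl49, Mrpl51, Mrps11 and Mrps5. The widest was Mrpl49, whose 4 probes gave 0.17 (the brightest), 0.071, -0.23 and -0.33. For Mrpl38 a dimmer probe gave -0.31 and the brightest 0.0044. Mrps18b was steadier, with 3 probes between 0.17 and 0.22, and Mrpl48, named here after its values were seen, had 3 detected probes between 0.16 and 0.28. No probe of these genes passed the adjusted threshold.

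The wider machinery of mitochondrial translation was examined with lists of genes. None of the lists had a gene past the adjusted threshold in limma. Among 11 of 12 translation factors that were detected, the median change was 0.043, and 2 of them had an unadjusted p under 0.05, as did 10.9% of all detected probes. These were Mtif3, an initiation factor, at 0.24, and Tsfm, the elongation factor that recharges mitochondrial EF-Tu, at -0.21. Among 15 of 20 genes for ribosome assembly and rRNA modification the median was -0.022, with the rRNA methyltransferases Mrm3 at -0.23 and Nsun4 at 0.16, and 1 gene, Mrm3, had an unadjusted p under 0.05. Of 17 mitochondrial tRNA synthetases 13 were detected, with a median of 0.017 and 1 gene at an unadjusted p under 0.05, and Iars2, the enzyme for isoleucine, gave 0.18.

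All 6 genes for mitochondrial transcription and mRNA handling were detected, with a median of -0.0076, and the transcription factors of the mitochondrial genome Tfam and Tfb2m gave 0.11 and -0.11. Of 9 biogenesis regulators 6 were detected, with a median of 0.0057, and the coactivators Ppargc1b and Pprc1 gave -0.28 and 0.23, of which Ppargc1b had an unadjusted p under 0.05. Ppargc1a, Yy1 and Myc were not detected on any array with the probes used. Of 7 listed mitoribosome proteins carried under other names 6 were detected, and their changes lay between -0.0039 and 0.076. That list leaves out Mrpl42, which the array carries as D10ERTD322E and which gave -0.12.

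The promoters of the members were then compared with those of other genes. RefSeq promoters matched 64 of the genes, with 70 windows. The ETS motif was present in 34.3% of these windows, beside 11.6% of 21262 windows of coding genes, the NRF1 motif in 28.6% beside 9.74%, and the YY1 motif in 18.6% beside 5.24%. The E-box was present in 10% beside 7.84%, but 3 of its 7 windows belonged to Mrpl2. Counted by gene the E-box was present in 7.81% of members beside 8.91% of 17491 coding genes, the ETS motif in 37.5% beside 12.9%, the NRF1 motif in 29.7% beside 11.0% and the YY1 motif in 20.3% beside 6.05%. Median GC content was 58.5% for the members and 56.3% for coding genes. YY1 matches lay close to the start, with a median position 17 bases after it. Members with the E-box, 5 detected genes, had a median log2 change of -0.072, and 56 without it -0.0083. For the NRF1 motif the medians were -8.9e-05 with and -0.016 without, for the ETS motif -0.016 with and -0.0043 without, and for the YY1 motif 0.0056 with (13 genes) and -0.018 without (48 genes). These are counts of letters, leave out non-canonical E-boxes and do not show binding.

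Mrpl22, a homologue of bacterial L22 near the exit tunnel, is shown because its window held 3 of the 4 motifs, as did that of Mrps18a. It lies at chr11:58171414-58171713, plus strand, and was chosen after the search.
Mrpl22: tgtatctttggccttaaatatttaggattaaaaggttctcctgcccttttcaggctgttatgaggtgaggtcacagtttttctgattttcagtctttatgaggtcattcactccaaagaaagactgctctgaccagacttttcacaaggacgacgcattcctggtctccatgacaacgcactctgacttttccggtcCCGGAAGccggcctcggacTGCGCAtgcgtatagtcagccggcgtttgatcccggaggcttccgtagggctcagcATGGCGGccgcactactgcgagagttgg
The ETS, NRF1 and YY1 matches began 53 and 34 bases before and 22 bases after the start. The log2 change of Mrpl22 was -0.0058 with a standard error of 0.10.

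Many members share a promoter region with a gene on the other strand. Within 1000 bases, 22 of 64 members (34.4%) had the start of a gene running the opposite way, beside 8.48% of 17491 coding genes. Mrpl46 and Mrps11 form such a pair with starts 42 bases apart, and their log2 changes were -0.067 and 0.068. Mrps12 is paired with Sars2, the mitochondrial serine tRNA synthetase, at 147 bases, with changes of -0.062 and -0.26. Mrpl43 is paired with Twnk, the helicase that unwinds mitochondrial DNA, at 116 bases, and the changes were -0.20 and -0.32, with a limma adjusted p of 0.562 for Twnk. Mrps18b is paired with Ppp1r10 at 756 bases, with changes of 0.17 and 0.35. Of 16 pairs with both genes detected, 9 had changes of the same sign. The shared region of Mrpl43, at chr19:45006393-45006692 on the minus strand, is given for that pair and was chosen after the values were seen.
Mrpl43: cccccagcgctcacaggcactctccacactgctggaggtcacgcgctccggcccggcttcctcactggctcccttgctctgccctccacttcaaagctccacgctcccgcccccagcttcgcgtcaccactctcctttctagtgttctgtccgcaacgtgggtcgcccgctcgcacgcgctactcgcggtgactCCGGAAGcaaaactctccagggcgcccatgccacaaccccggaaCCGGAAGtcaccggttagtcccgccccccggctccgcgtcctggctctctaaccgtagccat
ETS matches began 56 and 12 bases before the start of Mrpl43.

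**Figure D5:**
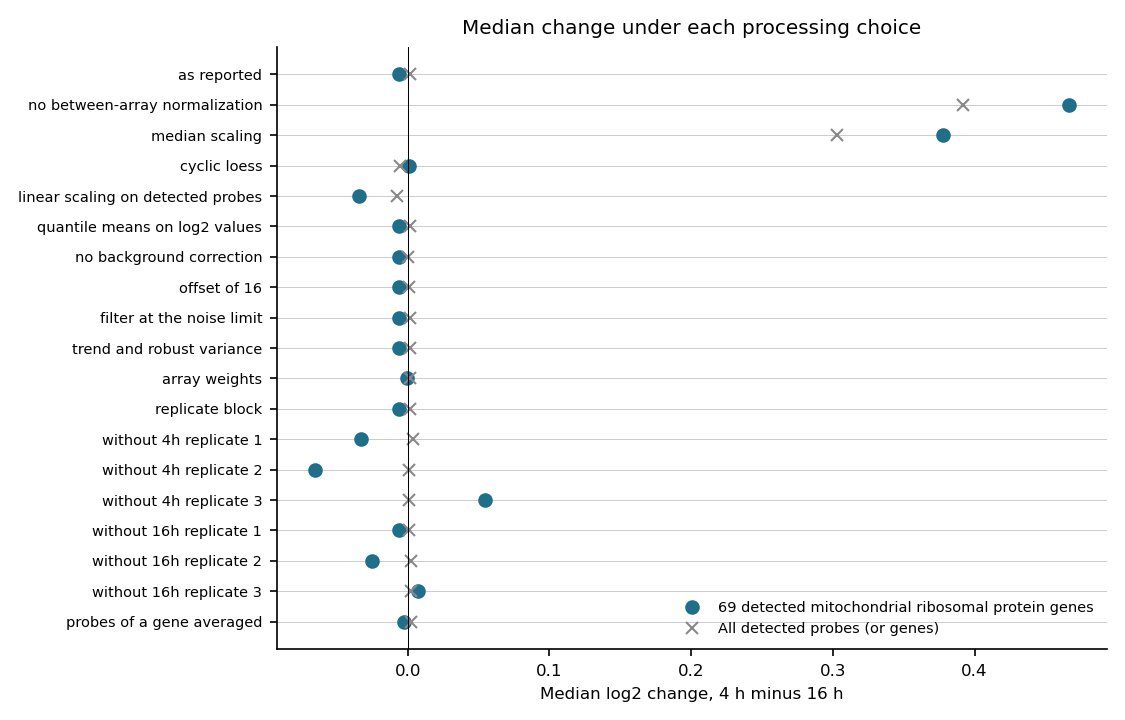
Median log2 change, 4 h minus 16 h (horizontal axis), of the 69 mitochondrial ribosomal protein genes (filled points) and of all detected probes (crosses) under each processing choice (vertical axis). The points lie near 0 except without normalization between arrays, at 0.47 beside 0.39, and with median scaling, at 0.38 beside 0.30. The crosses are not weighted to the members' brightness.

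The choice of normalization set the overall shift. With no normalization between arrays 23 of the 69 genes (33.3%) were higher at 4 h at an adjusted p under 0.05 in limma, beside 15.1% of detected probes, and with each array scaled to its median 8 genes (11.6%) were, beside 5.56%. Under both choices all 69 genes had positive changes, and the median of all detected probes was itself 0.39 and 0.30. Those shares and medians of detected probes are not weighted to the members' brightness. In deposited values the median log2 ratio of the members was 0.499, beside 0.497 for probes weighted in that way. With cyclic loess or linear scaling, as with quantile normalization, 0 genes passed, and 4 (5.80%) had an unadjusted p under 0.05 in each. The share of detected probes was 11.1% with cyclic loess, 11.2% with linear scaling and 10.9% with quantile normalization.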

How the data were processed

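RNA of synchronized mGLUTag cells was measured on 6 single-colour arrays of a mouse BeadChip, 3 at 4 h and 3 at 16 h. The authors deposited intensity values per probe on a linear scale, not normalized between arrays. Between 31.2% and 34.0% of them are below 0 on each array, as after background subtraction. The array software and its settings are not given in the sources used here. Here values were corrected with normexp (offset 50), which makes all values positive, quantile normalized and log2 transformed in limma 3.58.1 (R 4.3.3). A linear model with time as its term was fitted to all 45281 probes, as the study's methods also name limma, and p-values were adjusted by Benjamini-Hochberg. The procedure was tested on simulated data with log2 changes of 1 in 200 detected probes. Of these 181 passed the adjusted threshold, as did 1 other probe. Changes as small as those of the members were not simulated. Probes were detected above the 99th percentile of sign-turned negative values on all 6 arrays. A gene was represented by its brightest probe. Genes named were those with unadjusted p under 0.05, the 5 smallest p-values in each direction, the 3 brightest and dimmest per subunit, undetected genes, the Mrps18 copies, landmark proteins, genes whose probes differed in sign by over 0.2, and up to 2 per further list. Members and lists were chosen with earlier results of these data known. All 73 symbols matched RefSeq, whose annotation also holds members that the array names otherwise, such as Mrpl42, Mrpl57 and Mrpl58, and these were not counted as members. No depth applies to arrays, whose number limits precision. Alternatives were normalization, background correction, offset, filter, variance model, array weights, replicate block, averaged probes and leaving out each array. 1 gene of the further lists is not reported here by name.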

Additional observations from a re-analysis of the deposited data

How the results depend on the processing

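The finding that 0 mitochondrial ribosomal protein genes passed the adjusted threshold held in limma under every alternative except no normalization between arrays (23 genes) and median scaling (8 genes). The count of all probes that passed was 4, and it was 2308 and 832 under those choices, 2 with cyclic loess, 29 without background correction, 0 with an offset of 16, 0 with the filter at the noise limit, 1 with trend and robust variance, 0 with the replicate block and 2 with probes of a gene averaged. It was 0 with any 1 array left out. The members with an unadjusted p under 0.05 numbered 1 to 8 under the alternatives that passed 0 members, and the 8 (11.6%) came without replicate 1 at 16 h, where 15.5% of detected probes did so. Under those alternatives the share of detected probes, or of genes where probes were averaged, ran from 6.37% to 15.5%. The median change of members was 0.47 and 0.38 under no normalization and median scaling and ran from -0.066 to 0.055 with each array left out. Relative to like brightness it ran from -0.054 to 0.053 with each array left out, and the large minus small difference from -0.031 to 0.035. Of all 69 genes, 36 turned sign without normalization and 36 with median scaling, 7 with array weights, 4 with cyclic loess, 9 with linear scaling, 9 with averaged probes and 10 to 21 with each array left out. Values follow for the 31 genes named by rule. Without normalization, those with a negative change became Mrpl1 at 0.47, Mrpl12 at 0.30, Mrpl14 at 0.16, Mrpl34 at 0.14, Mrpl35 at 0.25, Mrpl39 at 0.14, Mrpl43 at 0.27, Mrpl53 at 0.38, Mrps12 at 0.38, Mrps18c at 0.32, Mrps21 at 0.26, Mrps24 at 0.45, Mrps30 at 0.49, Mrps33 at 0.42 and Mrps5 at 0.34. With median scaling they became Mrpl1 at 0.38, Mrpl12 at 0.21, Mrpl14 at 0.067, Mrpl34 at 0.050, Mrpl35 at 0.16, Mrpl39 at 0.049, Mrpl43 at 0.18, Mrpl53 at 0.29, Mrps12 at 0.29, Mrps18c at 0.23, Mrps21 at 0.18, Mrps24 at 0.36, Mrps30 at 0.40, Mrps33 at 0.33 and Mrps5 at 0.25. Signs also turned with array weights for Mrpl1 at 0.0051, Mrpl38 at -0.012, Mrps24 at 0.00041, Mrps30 at 0.0047 and Mrps33 at 0.012, with cyclic loess for Mrpl13 at -0.0031, Mrps24 at 0.0045 and Mrps30 at 0.0059, with linear scaling for Mrpl13 at -0.10, Mrpl33 at -0.10, Mrpl38 at -0.037 and Mrps18a at -0.019, and with averaged probes for Mrpl1 at 0.048, Mrpl13 at -0.00088, Mrpl38 at -0.15, Mrpl49 at -0.079, Mrps11 at -0.044 and Mrps33 at 0.039. With each array left out, signs turned for Mrpl1 from -0.18 to 0.18, Mrpl11 from -0.092 to 0.13, Mrpl13 from -0.055 to 0.12, Mrpl33 from -0.080 to 0.13, Mrpl35 from -0.14 to 0.052, Mrpl38 from -0.080 to 0.12, Mrpl53 from -0.19 to 0.040, Mrps11 from -0.046 to 0.19, Mrps12 from -0.18 to 0.0046, Mrps18a from -0.056 to 0.058, Mrps18c from -0.24 to 0.024, Mrps24 from -0.055 to 0.085, Mrps30 from -0.11 to 0.051 and Mrps33 from -0.099 to 0.10. The causes were not tested. Quantile means on log2 values, an alternative added after seeing the data, turned no sign. The replicate block changed no other call, and deviations of same-numbered arrays correlated at 0.25, 0.17 and -0.49, so the numbers were not taken as pairs. The 3 arrays of each time and signal near the noise limit bound what could be seen in dim genes such as Mrpl45.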
